A study of Mus musculus with 12 samples.

Results

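Expression of 8 genes best known for their products in neutrophils was measured in macrophages labelled as lacking the ubiquitin ligase Cbl, its relative Cbl-b, or both. The genes were chosen by symbol: S100a8, S100a9, Ngp, Ltf, Chil3, Mmp8, Serpinb1a and Csf3r. They are 8 of the 15555 genes in the deposited table, and all 8 were among the 12671 genes that passed the filter on low counts. None of them needed the libraries labelled DKO to pass it. Reads per gene were counted in 12 mRNA libraries of mouse bone-marrow-derived macrophages, which were grown from marrow for 9 days in medium that held the growth factor CSF-1 from L-cell supernatant. There were 3 libraries labelled DKO (Cbl-/- and Cbl-b-/- together), 3 labelled Cbl-/-, 3 labelled Cbl-b-/- and 3 wild type (WT). The design compares how the transcriptome of these cells differs when either ligase or both are missing. The labels give no strain, no age of the mice and no construction of the alleles, and they leave it unsaid whether each replicate is an animal of its own. A p-value here covers no more than the library-to-library spread, and that spread may be technical.

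Calprotectin is the complex of S100A8 and S100A9, calcium-binding proteins that withhold zinc and manganese from microbes and that fill the cytosol of neutrophils and, at lower levels, monocytes. Neutrophils store further antimicrobial proteins and proteases in granules that form in order as the cells mature: azurophil granules first, then specific granules with lactoferrin, then gelatinase granules. Granulopoiesis is driven by the growth factor G-CSF and by transcription factors of the C/EBP family, while macrophages grown in CSF-1 take another branch of the myeloid tree and as a rule carry little of these transcripts.

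Total counts per library were 32863268 to 43946503 in the libraries labelled DKO, 23892790 to 35129318 in Cbl-/-, 21048103 to 34099547 in those labelled Cbl-b-/- and 27822954 to 42007454 in WT. Cbl itself had 37.6 ± 3.05 CPM (reads scaled to library size) in the libraries labelled DKO, 51.5 ± 2.34 in Cbl-/-, 139 ± 3.04 in those labelled Cbl-b-/- and 140 ± 3.42 in WT (SD, n = 3). Cblb had 71.7 ± 3.23, 68.5 ± 0.69, 52.8 ± 2.93 and 59.4 ± 3.51 CPM in the same order. Its transcript was not lost in the libraries labelled Cbl-b-/- (log2 fold change -0.17 against WT, adjusted p = 0.46) and rose in those labelled DKO (0.27, adjusted p = 0.0027). Every direction given below for these libraries rests on their labels. DKO 3, the deepest library, stood apart from its partners: the chi-square statistic of its counts per degree of freedom was 44.7 and 55.3 against DKO 1 and DKO 2, which differed from each other by 10.2. The changes of the 8 genes against WT and their departures from additivity are given with and without it. For gene and marker lists, counts without it are given where they differed.

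The calprotectin genes S100a8 and S100a9, the granule protein genes Ngp and Ltf, Chil3 and the protease inhibitor gene Serpinb1a rose in the libraries labelled DKO against WT, by 12.5-fold to 53.8-fold. The collagenase gene Mmp8 fell, and the G-CSF receptor gene Csf3r did not pass the test. Thus 6 of the 8 genes rose, with 1 that fell and 1 that did not pass, where 35.4% of all genes tested passed, 19.1% higher and 16.3% lower. All 3 libraries labelled DKO lay above all 3 WT libraries in 6 of the 8 genes and below them in 2, where the groups did not overlap in 46.5% of all genes tested, 23.7% above and 22.8% below. The median log2 fold change was 3.82 over the 8 genes and -0.0029 over all genes tested. Scaling to total counts in place of TMM moved the split over all genes to 1773 higher and 2873 lower, against 2423 higher and 2062 lower with TMM, while the 6 genes stayed higher. Without DKO 3, 7 of the 8 genes passed as well. In bulk RNA a different share of cells of one type and a different amount of RNA per cell cannot be told apart.

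**Figure D1:**
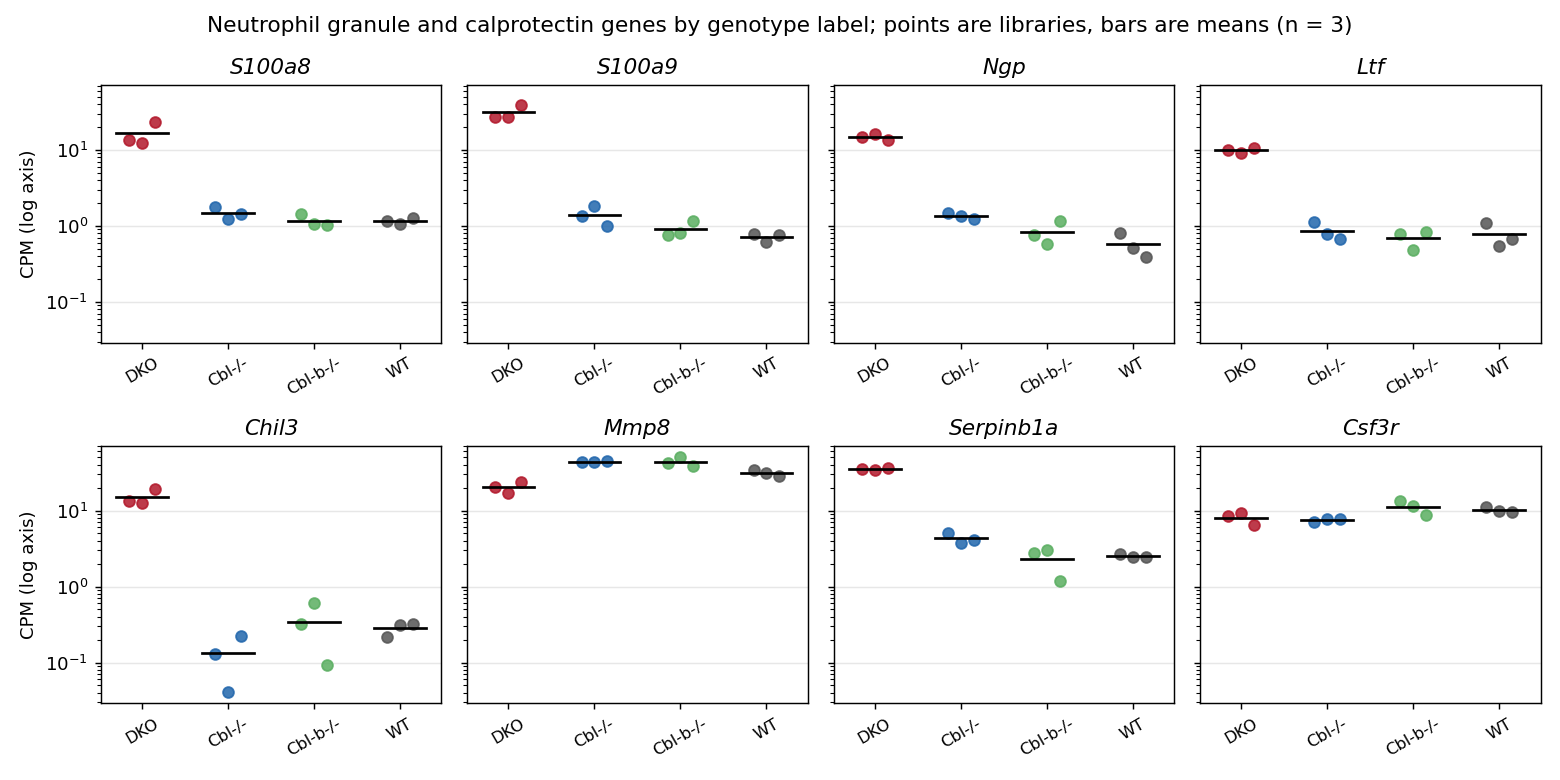
Level of each of the 8 genes in each library in CPM on a log axis, by genotype label, with 1 point per library and a bar at the mean of 3. The libraries labelled DKO lie above all others for S100a8, S100a9, Ngp, Ltf, Chil3 and Serpinb1a and below all others for Mmp8, while for Csf3r they overlap Cbl-/- and the Cbl-b-/- label and lie just below WT.

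S100a8 and S100a9 lie on chromosome 3 (GRCm38), S100a8 at 90668978 to 90670035 on the plus strand (ENSMUSG00000056054) and S100a9 at 90692632 to 90695721 on the minus strand (ENSMUSG00000056071), with 22.6 kb between them. S100a8 had 13.6, 12.4 and 23.3 CPM in the libraries labelled DKO, 1.79, 1.24 and 1.43 in Cbl-/-, 1.42, 1.06 and 1.01 in those labelled Cbl-b-/-, and 1.17, 1.05 and 1.25 in WT. Every library labelled DKO lay above the other 9, and DKO 3 was the highest of all. The difference between the libraries labelled DKO and WT was 14.3-fold (log2 fold change 3.84, SE 0.24, adjusted p = 4.3e-09), and 3.50 on the log2 scale without DKO 3.

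S100a9 had 26.9, 26.7 and 39.3 CPM in the libraries labelled DKO, 1.37, 1.82 and 1.01 in Cbl-/-, 0.755, 0.804 and 1.15 in those labelled Cbl-b-/-, and 0.785, 0.616 and 0.750 in WT. DKO 3 again held the highest value, at 1.27 times the mean of its group, and the other 9 libraries lay at 1.82 CPM or below. Its rise was 43.1-fold (log2 fold change 5.43, SE 0.22, adjusted p = 1.9e-11, and 5.22 without DKO 3), the 8th largest increase of the 12671 genes. Genes without a read in WT 1 had no values and are not in this ranking. The partners of the calprotectin complex did not rise by the same factor. Per length of transcript, S100a9 stood to S100a8 as 2.63, 2.86 and 2.24 to 1 in the libraries labelled DKO, against 1.02, 1.95 and 0.939 in Cbl-/-, 0.705, 1.01 and 1.51 in those labelled Cbl-b-/-, and 0.895, 0.778 and 0.798 in WT. All 3 ratios in the libraries labelled DKO lay above the other 9. By CPM per kilobase of exon (RPKM), S100a9 was the 787th gene of 12671 in the libraries labelled DKO and the 9489th in WT, and S100a8 the 2133rd and the 9203rd.

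Promoter sequences from RefSeq (GRCm38.p6), from 250 bases before to 50 bases after the annotated start, were matched for 7 of the 8 genes, all but Serpinb1a. Those of the calprotectin and specific granule genes are shown, with S100a8, S100a9, Ngp and Ltf higher and Mmp8 lower in the libraries labelled DKO, and that of Csf3r, which did not pass. Capitals mark each match to TTNNGNAA, a loose form of the C/EBP site searched on both strands. S100a8 is at chr3:90668821-90669120 (plus strand), S100a9 at chr3:90695672-90695971 (minus strand), Ngp at chr9:110419558-110419857 (plus strand), Ltf at chr9:111019042-111019341 (plus strand), Mmp8 at chr9:7558179-7558478 (plus strand) and Csf3r at chr4:126024409-126024708 (plus strand), each written 5′ to 3′ along the gene's strand.
S100a8: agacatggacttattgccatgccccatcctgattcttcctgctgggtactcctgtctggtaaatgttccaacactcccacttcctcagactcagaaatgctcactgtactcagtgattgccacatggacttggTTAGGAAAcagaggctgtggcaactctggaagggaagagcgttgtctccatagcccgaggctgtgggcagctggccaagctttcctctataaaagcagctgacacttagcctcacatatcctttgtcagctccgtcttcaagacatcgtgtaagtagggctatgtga
S100a9: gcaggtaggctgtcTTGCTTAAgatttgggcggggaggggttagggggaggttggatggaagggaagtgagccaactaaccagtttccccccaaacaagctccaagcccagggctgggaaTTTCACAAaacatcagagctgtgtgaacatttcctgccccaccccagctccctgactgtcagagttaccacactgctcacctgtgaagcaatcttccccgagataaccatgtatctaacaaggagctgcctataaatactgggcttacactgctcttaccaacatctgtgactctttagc
Ngp: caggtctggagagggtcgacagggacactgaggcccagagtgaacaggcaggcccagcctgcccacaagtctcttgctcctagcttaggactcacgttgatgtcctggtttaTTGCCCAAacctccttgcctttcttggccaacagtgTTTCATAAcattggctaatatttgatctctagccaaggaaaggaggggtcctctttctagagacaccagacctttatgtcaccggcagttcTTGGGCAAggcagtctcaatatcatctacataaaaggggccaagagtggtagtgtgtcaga
Ltf: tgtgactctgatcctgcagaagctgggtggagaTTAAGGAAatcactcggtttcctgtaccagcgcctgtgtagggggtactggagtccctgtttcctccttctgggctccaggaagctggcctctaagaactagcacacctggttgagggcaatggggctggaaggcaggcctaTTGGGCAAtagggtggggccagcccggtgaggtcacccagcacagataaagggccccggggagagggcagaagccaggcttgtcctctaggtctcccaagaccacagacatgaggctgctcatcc
Mmp8: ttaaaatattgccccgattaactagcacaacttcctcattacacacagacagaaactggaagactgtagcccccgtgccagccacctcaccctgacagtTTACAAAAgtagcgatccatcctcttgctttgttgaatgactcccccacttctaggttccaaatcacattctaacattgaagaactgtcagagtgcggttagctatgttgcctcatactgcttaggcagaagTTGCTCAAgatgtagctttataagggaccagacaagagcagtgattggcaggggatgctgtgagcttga
Csf3r: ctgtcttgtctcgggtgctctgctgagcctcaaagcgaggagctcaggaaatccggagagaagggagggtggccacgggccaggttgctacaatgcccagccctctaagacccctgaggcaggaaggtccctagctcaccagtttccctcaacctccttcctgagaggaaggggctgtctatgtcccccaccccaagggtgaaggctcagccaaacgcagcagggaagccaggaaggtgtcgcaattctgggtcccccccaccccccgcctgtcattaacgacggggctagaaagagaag

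The C/EBP letters matched once in the S100a8 promoter, at 2 places in S100a9, Ltf and Mmp8, at 3 in Ngp and Chil3, and nowhere in Csf3r. They were in 6 of 7 of these promoters and in 40.7% of the 32851 RefSeq promoters of the same length. AGGAAG, the core of the PU.1 site, was in 5 of 7, against 35.4% of all promoters, and had 4 matches in Csf3r. TTCNNNGAA, the STAT site, was in 1 of 7 (Chil3), against 8.30% of all. TATAAA was in 4 of 7, against 13.6% of all. Both strands were read for each. A match only says that these letters occur in the window.

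Ngp encodes neutrophilic granule protein, a mouse protein of the cystatin and cathelicidin superfamily, and Ltf encodes lactoferrin, the iron-binding protein of specific granules. Both lie on chromosome 9, Ngp at 110419747 to 110423012 (ENSMUSG00000032484) and Ltf at 111019271 to 111042767 (ENSMUSG00000032496), at 66.2 and 66.8 Mb from Cbl. Ngp had 14.8, 15.97 and 13.6 CPM in the libraries labelled DKO, 1.46, 1.36 and 1.23 in Cbl-/-, 0.755, 0.579 and 1.15 in those labelled Cbl-b-/-, and 0.809, 0.513 and 0.393 in WT. The groups formed steps, with all libraries labelled DKO above Cbl-/- and all Cbl-/- libraries above WT. Its level was 24.9-fold higher in the libraries labelled DKO than in WT (log2 fold change 4.64, SE 0.22, adjusted p = 1.7e-10).

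Ltf had 9.98, 8.94 and 10.6 CPM in the libraries labelled DKO, 1.14, 0.785 and 0.673 in Cbl-/-, 0.784, 0.482 and 0.827 in those labelled Cbl-b-/-, and 1.09, 0.539 and 0.679 in WT. The Cbl-/-, Cbl-b-/- and WT libraries overlapped one another, and the libraries labelled DKO overlapped none of them. The rise over WT was 12.5-fold (log2 fold change 3.65, SE 0.25, adjusted p = 1.3e-08). The spread among the libraries labelled DKO was small for both genes, with means of 14.8 ± 1.20 CPM for Ngp and 9.83 ± 0.827 CPM for Ltf (SD, n = 3). DKO 3 was the lowest of its group for Ngp and the highest for Ltf, and without it the log2 fold changes against WT were 4.70 and 3.59.

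Chil3 encodes Ym1, a chitinase-like lectin that mouse neutrophil precursors and alternatively activated macrophages make. It lies on chromosome 3, 106147554 to 106167564, minus strand (ENSMUSG00000040809). It had 13.4, 12.6 and 19.2 CPM in the libraries labelled DKO, 0.130, 0.0413 and 0.224 in Cbl-/-, 0.319, 0.611 and 0.0919 in those labelled Cbl-b-/-, and 0.214, 0.308 and 0.322 in WT. Outside the libraries labelled DKO the gene was close to the limit of detection, with 4, 1 and 8 reads in Cbl-/-, 11, 19 and 2 in the libraries labelled Cbl-b-/- and 9, 12 and 9 in WT. The rise over WT was 53.8-fold, the largest of the 8 genes and the 4th largest of all genes tested (log2 fold change 5.75, SE 0.33, adjusted p = 1.4e-09; 5.53 without DKO 3). Of the 50-base stretches in its transcripts, 26.9% also occur in Chil4 or Gm6522, and how such reads were counted is not given, so its level is uncertain to that extent.

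Serpinb1a is the mouse counterpart of SERPINB1, the cytosolic inhibitor of neutrophil elastase, cathepsin G and proteinase 3. It lies on chromosome 13, 32842092 to 32851185, minus strand (ENSMUSG00000044734). It had 34.95, 33.8 and 36.7 CPM in the libraries labelled DKO, 5.01, 3.72 and 4.15 in Cbl-/-, 2.76, 2.99 and 1.19 in those labelled Cbl-b-/-, and 2.71, 2.41 and 2.43 in WT. The libraries labelled DKO were tight, at 35.2 ± 1.48 CPM (SD, n = 3), and the Cbl-/- libraries lay between them and all others. The rise over WT in the libraries labelled DKO was 13.9-fold (log2 fold change 3.80, SE 0.18, adjusted p = 1.7e-10; 3.77 without DKO 3). Stretches shared with Serpinb1-ps1, Serpinb1b and Serpinb1c made up 2.81% of its transcripts.

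Mmp8, neutrophil collagenase, is a matrix metalloproteinase of specific granules. It lies on chromosome 9, 7558456 to 7568485, plus strand (ENSMUSG00000005800), 36.6 Mb from Cbl. It was the one gene of the 8 with both single-knockout labels above the libraries labelled DKO. It had 20.5, 17.0 and 23.5 CPM in the libraries labelled DKO, 43.9, 42.9 and 45.4 in Cbl-/-, 42.3, 49.98 and 38.6 in those labelled Cbl-b-/-, and 34.4, 31.5 and 28.3 in WT. All libraries labelled DKO lay below WT, and all of both single-knockout labels above it. Against WT it fell in the libraries labelled DKO (log2 fold change -0.63, SE 0.11, adjusted p = 0.00035; -0.74 without DKO 3). It rose in Cbl-/- (0.49, SE 0.11, adjusted p = 0.0077). The libraries labelled Cbl-b-/- had 0.47 (SE 0.11), which did not pass (adjusted p = 0.081). Between Cbl-/- and the libraries labelled Cbl-b-/- the values overlapped and did not differ beyond their spread (0.01, adjusted p = 0.96).

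Csf3r encodes the receptor for G-CSF, whose signal runs through JAK kinases and STAT3. It lies on chromosome 4, 126024550 to 126044440, plus strand (ENSMUSG00000028859). It had 8.42, 9.35 and 6.47 CPM in the libraries labelled DKO, 7.16, 7.73 and 7.76 in Cbl-/-, 13.3, 11.4 and 8.68 in those labelled Cbl-b-/-, and 10.99, 9.72 and 9.47 in WT. Its means were 8.08 ± 1.47 CPM in the libraries labelled DKO, 7.55 ± 0.341 in Cbl-/-, 11.1 ± 2.31 in those labelled Cbl-b-/- and 10.1 ± 0.816 in WT (SD, n = 3), so the Cbl-b-/- label was highest and Cbl-/- lowest. Each library labelled DKO and each Cbl-/- library lay below all WT libraries, but neither comparison with WT passed (log2 fold changes -0.32 and -0.42, SE 0.15 each, adjusted p = 0.1 each). The value for the DKO label was -0.18 without DKO 3 (adjusted p = 0.33) and -0.44 without DKO 2, where it passed (adjusted p = 0.042). It also passed with scaling to total counts (-0.39, adjusted p = 0.047), under which all 8 genes were called. For Cbl-/- it passed when those 2 genotypes were fitted alone (adjusted p = 0.0053). Stretches that 190 other genes share made up 10.5% of its transcripts.

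**Figure D2:**
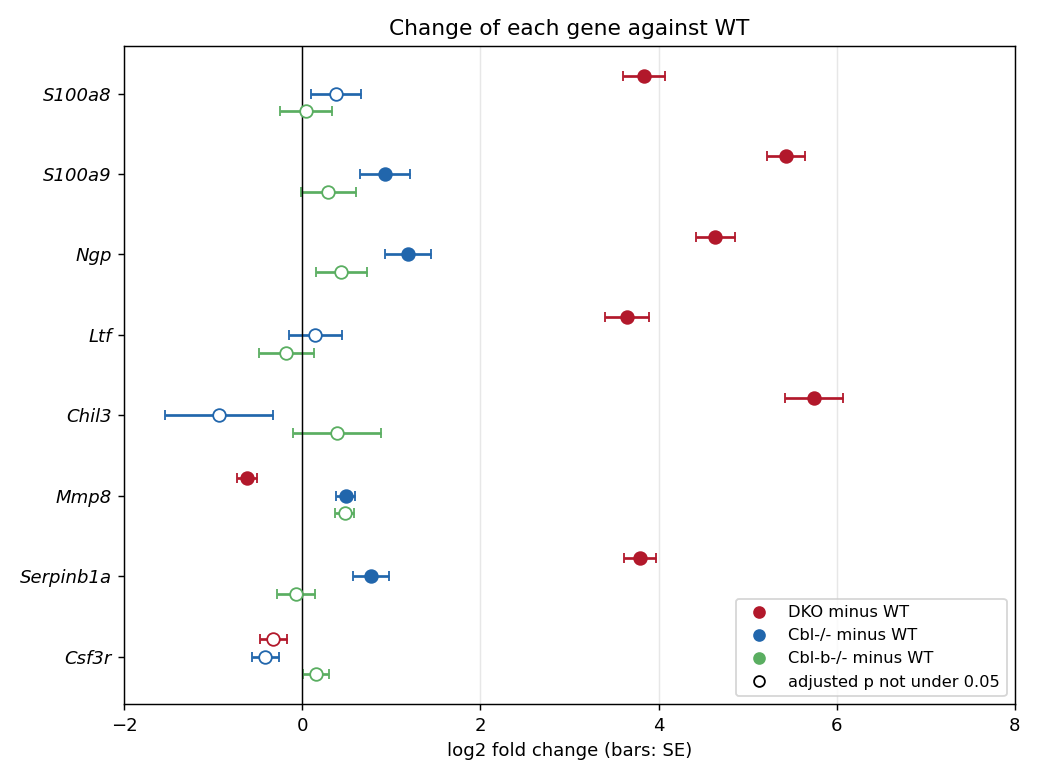
Log2 fold change against WT of each of the 8 genes in the libraries labelled DKO (red), Cbl-/- (blue) and those labelled Cbl-b-/- (green), with bars of 1 SE and open points where the adjusted p was not under 0.05. The 6 red points from 3.65 to 5.75 stand far from the single-knockout points, Mmp8 is at -0.63 in red and near 0.5 in blue and green, and no green point passed.

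In Cbl-/- macrophages 4 of the 8 genes rose against WT, 0 fell and 4 did not pass, where 9.87% of all genes tested passed, 5.68% higher and 4.19% lower. Ngp rose by 1.19 on the log2 scale (SE 0.26, adjusted p = 0.0068) and Mmp8 by 0.49, and both calls held in each alternative processing. Serpinb1a rose by 0.77 (SE 0.20, adjusted p = 0.019) and S100a9 by 0.92 (SE 0.28, adjusted p = 0.047). The S100a9 call rests on 21 to 33 reads per WT library and was lost with voom (adjusted p = 0.36) and under the block on replicate number (adjusted p = 0.056), and without WT 1, WT 2, WT 3, Cbl-/- 1 or Cbl-/- 2. The Serpinb1a call was lost without WT 1, WT 2, WT 3, Cbl-/- 1 or Cbl-/- 3 (adjusted p of 0.051 to 0.11). S100a8 had 0.38 (SE 0.28, adjusted p = 0.5), Ltf 0.14 (adjusted p = 0.85) and Chil3 -0.94 (SE 0.60, adjusted p = 0.42). The median over the 8 genes was 0.43, and all 3 Cbl-/- libraries lay above all WT libraries in 4 of them and below in 1. The groups did not overlap in 37.6% of all genes, 19.0% above and 18.6% below.

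In the libraries labelled Cbl-b-/- none of the 8 genes passed edgeR's quasi-likelihood test against WT, where 0.489% of all genes tested did, 0.395% higher and 0.0947% lower. At an unadjusted p under 0.05 the count was 1, which is Mmp8, and DESeq2 called the same gene (adjusted p = 0.0077). Mmp8 was also the only gene of the 8 whose libraries did not overlap with WT, all 3 lying above, where 15.1% of all genes did not overlap, 7.84% above and 7.27% below. The other 7 genes had log2 fold changes between -0.18 for Ltf and 0.44 for Ngp, with a median of 0.22 over all 8. The comparisons of the 3 knockout labels with WT share the WT libraries.

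S100a8, S100a9, Ngp, Ltf, Chil3 and Serpinb1a also rose, and Mmp8 also fell, in the libraries labelled DKO against each single-knockout label. Against Cbl-/-, 7 of the 8 genes passed, all but Csf3r (0.09, adjusted p = 0.7), where 29.6% of all genes passed. S100a8 differed by 3.46 on the log2 scale, S100a9 by 4.50, Ngp by 3.45, Ltf by 3.50, Serpinb1a by 3.03 and Mmp8 by -1.11. Chil3 differed by 6.69, a value that rests on 13 reads in all 3 Cbl-/- libraries together. Against the libraries labelled Cbl-b-/-, all 8 passed, where 33.2% of all genes passed. Mmp8 had -1.10 there (SE 0.11, adjusted p = 1.4e-06), and Csf3r -0.48 (SE 0.15, adjusted p = 0.021) with overlapping libraries. The Csf3r call was lost without DKO 3, Cbl-b-/- 1 or Cbl-b-/- 2 and when only those genotypes were fitted. Between the single-knockout labels themselves, Serpinb1a was higher in Cbl-/- than in the libraries labelled Cbl-b-/- (0.84, SE 0.20, adjusted p = 0.018), Csf3r was lower (-0.57, SE 0.15, adjusted p = 0.03) and the other 6 did not pass, where 7.37% of all genes passed. The Serpinb1a call was lost without Cbl-/- 1 or Cbl-/- 3, and the Csf3r call without any 1 of the Cbl-/- libraries, Cbl-b-/- 1 or Cbl-b-/- 2.

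A contrast in the same fit asked whether the change under the DKO label equals both single-knockout changes added on the log2 scale. It passed for 7 of the 8 genes, 6 upward and 1 downward, where 15.7% of all genes passed, 8.39% upward and 7.28% downward. For S100a9 the single effects summed to 1.22 and the change in the libraries labelled DKO was 5.43, a departure of 4.21 (SE 0.38, adjusted p = 1.3e-06). For Ngp the sum was 1.63 against 4.64, a departure of 3.01 (SE 0.36, adjusted p = 2.4e-05). Chil3 departed by 6.30 (SE 0.71), Ltf by 3.68 (SE 0.40), S100a8 by 3.42 (SE 0.38) and Serpinb1a by 3.10 (SE 0.27). Mmp8 departed the other way: its single effects summed to 0.96 and the change in the libraries labelled DKO was -0.63, a departure of -1.59 (SE 0.16, adjusted p = 3.4e-06). Csf3r had a departure of -0.06 (SE 0.21, adjusted p = 0.89), with a sum of -0.26 and a change of -0.32. Without DKO 3 the departures were 3.08 for S100a8, 4.001 for S100a9, 3.07 for Ngp, 3.63 for Ltf, 6.09 for Chil3, -1.70 for Mmp8 and 3.06 for Serpinb1a, and the same 7 genes passed.

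**Figure D3:**
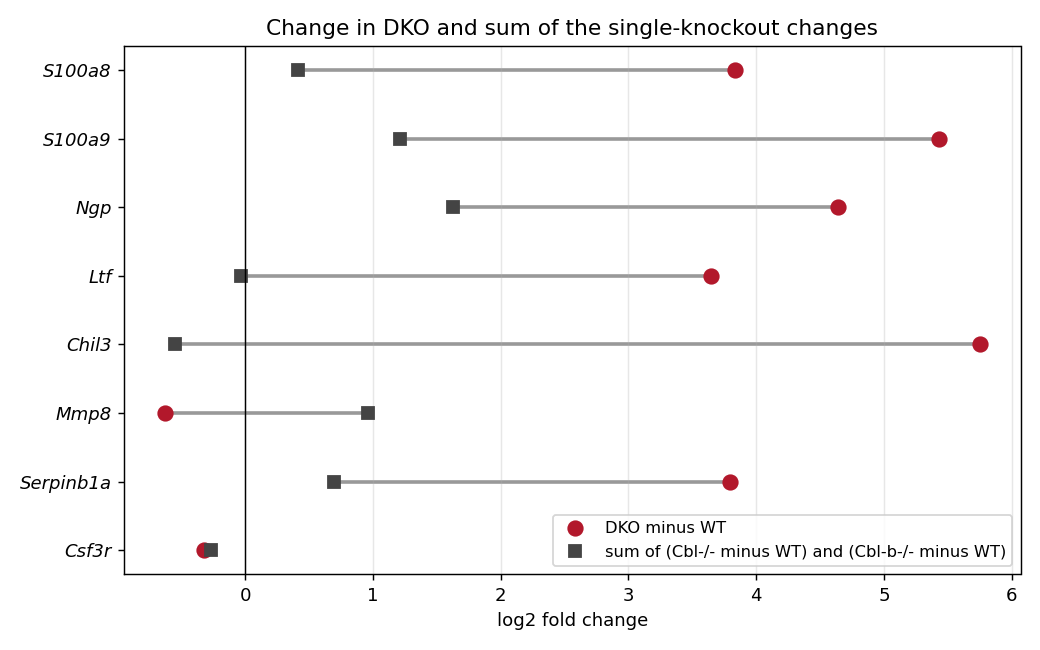
For each of the 8 genes, the log2 fold change in the libraries labelled DKO against WT (red circles) and the sum of the Cbl-/- and Cbl-b-/- label changes against WT (dark squares), joined by a line. The circle lies 3.01 to 6.30 to the right of the square for 6 genes and 1.59 to the left for Mmp8, and both nearly coincide for Csf3r.

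The make-up of the group changed with its size. Summed over the 8 genes, RPKM was 117 to 162 in the libraries labelled DKO, 28.0 to 29.1 in Cbl-/-, 23.7 to 29.1 in those labelled Cbl-b-/- and 19.3 to 22.7 in WT. Mmp8 made up 6.34% ± 0.595 of that sum in the libraries labelled DKO, 64.0% ± 2.45 in Cbl-/-, 67.6% ± 2.94 in those labelled Cbl-b-/- and 62.4% ± 1.91 in WT (SD, n = 3). S100a8 and S100a9 together made up 61.8% ± 4.59 in the libraries labelled DKO, against 17.0% ± 2.39, 12.99% ± 2.44 and 14.7% ± 1.81 in the other groups in the same order. Thus the leading gene per length was S100a9 in every library labelled DKO and Mmp8 in each of the other 9.

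**Figure D4:**
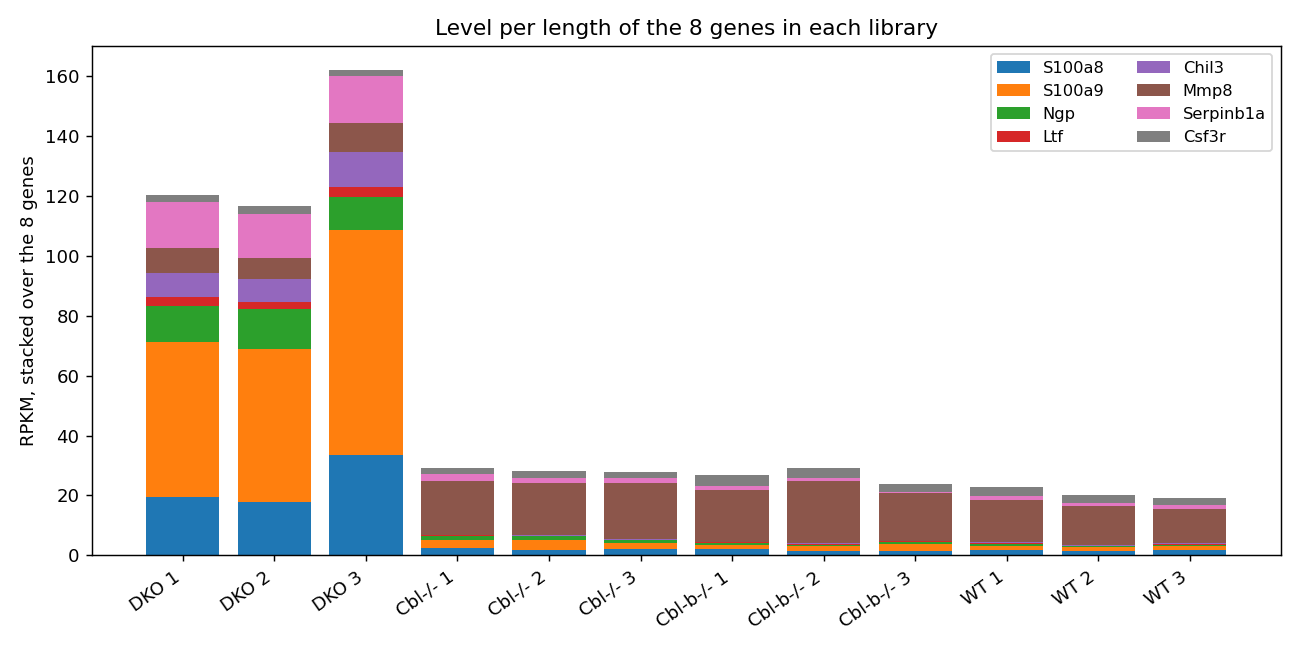
RPKM of the 8 genes stacked in each library, by genotype label. The bars of the libraries labelled DKO reach 117 to 162 and consist mostly of S100a8 and S100a9, while the other 9 reach 19.3 to 29.1 and consist mostly of Mmp8.

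Genes of other granules and of mature neutrophils were read from lists in the same way. Against WT, 35.4% of all genes tested passed in the libraries labelled DKO, 19.1% higher and 16.3% lower, and the counts of each list stand beside that share. Of 14 other specific and gelatinase granule genes tested, 6 rose in the libraries labelled DKO against WT, 2 fell and 6 did not pass. Their median was 0.31 (7, 3 and 4 genes without DKO 3). Cd177, among those that rose, passed the filter on low counts only through the libraries labelled DKO, so its fall could not have been called. Lcn2, the siderophore-binding lipocalin of specific granules, had 5.69 ± 0.903 CPM in the libraries labelled DKO and 0.219 ± 0.0841 in WT (SD, n = 3; log2 fold change 4.63, adjusted p = 1.6e-08), and Hp, haptoglobin, rose by 4.40. Itgb2, the integrin beta chain, and Cybb, the large subunit of the phagocyte oxidase, which macrophages express as well, rose by 0.38 and 0.69. Of 6 azurophil granule genes tested, 5 rose, 0 fell and 1 did not pass, with a median of 0.42 and the same counts without DKO 3. The beta-glucuronidase gene Gusb and the proteoglycan gene Srgn, which macrophages express as well, rose by 0.40 and 0.44. The serine protease gene Ctsg, cathepsin G, had 103, 112 and 131 reads in the libraries labelled DKO and 3, 5 and 5 in WT (log2 fold change 4.69, adjusted p = 4.6e-06). Prtn3, proteinase 3, had 57, 107 and 71 reads in the libraries labelled DKO and 1, 0 and 0 in WT. Both are targets of the inhibitor that Serpinb1a encodes. Both passed the filter on low counts only through the libraries labelled DKO, so a fall could not have been called.

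Of 15 genes of the surface and cytosol of mature neutrophils, 11 rose and 1 fell, and 3 did not pass; their median was 1.53. Without DKO 3 only 7 of 14 rose and 2 fell, with a median of 0.93, and 4 of the 15 had passed the filter only through the libraries labelled DKO. Padi4, which citrullinates histones in extracellular traps, had 14.5 ± 1.56 CPM in the libraries labelled DKO and 2.55 CPM in WT (log2 fold change 2.49, adjusted p = 3.9e-08). Ptafr, the receptor for platelet-activating factor, rose by 0.79 and the surface protein gene Cd24a by 1.18.

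Among 15 tested genes for calprotectin receptors and other S100 proteins, 6 rose and 3 fell, and 6 did not pass; their median was 0.07. Cd69, a reported S100A8/S100A9 receptor and early activation marker, rose by 3.05 (SE 0.20, adjusted p = 6.1e-09), the scavenger receptor gene Cd36 by 0.86 and S100a10 by 0.71, while Cd33 fell by 0.70. In the list of protease inhibitors, 12 of 14 rose, 0 fell and 2 did not pass, with a median of 0.88. Timp2, an inhibitor of metalloproteinases, rose by 1.00, and the clade B serpin genes Serpinb9b, Serpinb1c and Serpinb8 rose by 2.32, 1.42 and 0.75. Of 9 other matrix metalloproteinase genes, 4 rose, 0 fell and 5 did not pass, against 2, 0 and 7 without DKO 3. The membrane-bound Mmp14 rose by 2.73, Mmp9, gelatinase B, by 2.27, Mmp12 by 0.36 and Mmp13 by 0.32, whereas Mmp8 fell.

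Of 14 granulopoiesis transcription factor genes, 4 rose and 5 fell, and 5 did not pass (5, 4 and 5 without DKO 3). Their median was 0.11. Cebpa, which starts granulocyte commitment, fell to 65.8 ± 8.95 CPM in the libraries labelled DKO, against 109 CPM in WT (log2 fold change -0.73, adjusted p = 3.5e-06). Zbtb16 and Runx1 fell by 1.65 and 0.32, and Egr2 rose by 1.41. Cebpe, the factor of the specific granule stage, had 31, 37 and 32 reads in the libraries labelled DKO and 18, 24 and 19 in WT and did not pass (0.71, adjusted p = 0.12). Of 19 genes of G-CSF receptor signalling, 8 rose, 2 fell and 9 did not pass (10, 2 and 7 without DKO 3). Cish, among those that rose, passed the filter on low counts only through the libraries labelled DKO, so its fall could not have been called. Socs3, the feedback inhibitor of this receptor, rose by 1.92 (SE 0.11, adjusted p = 1.6e-09) and the phosphatase gene Ptpn6 by 0.32. Of 8 receptors for other colony-stimulating factors, 2 rose, 4 fell and 2 did not pass. Csf2rb rose by 0.48, while Il3ra, Il6ra and Csf1r fell by 0.74, 0.44 and 0.37. Among 6 genes of alternative activation, 3 rose, 2 fell and 1 did not pass (3, 1 and 2 without DKO 3). The other chitinase-like genes of that list were not analysed here. Mrc1, the mannose receptor, fell by 1.88 (SE 0.16, adjusted p = 7.3e-07), while Fn1, Clec10a and Tgm2 rose by 1.24, 0.97 and 0.79.

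In Cbl-/- against WT, 5.68% of all genes tested were higher and 4.19% lower. There 4 of 15 mature neutrophil genes rose and 1 fell, and 3 of 15 calprotectin receptor and S100 genes rose and 1 fell. In 3 lists of 14 genes each, 1 rose and 2 fell: specific and gelatinase granule genes, granulopoiesis transcription factors and protease inhibitors. In the remaining lists 0 fell. The genes that rose were 1 of 6 for azurophil granules and 4 of 19 for G-CSF receptor signalling. They were 1 of 8 for other colony-stimulating factor receptors, 2 of 9 for matrix metalloproteinases and 2 of 6 for alternative activation. In the libraries labelled Cbl-b-/-, the genes of these lists that passed were Socs3 (0.84, SE 0.11, adjusted p = 0.0013) and Timp2 (0.35, SE 0.06, adjusted p = 0.0075), and both were higher.

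**Figure D5:**
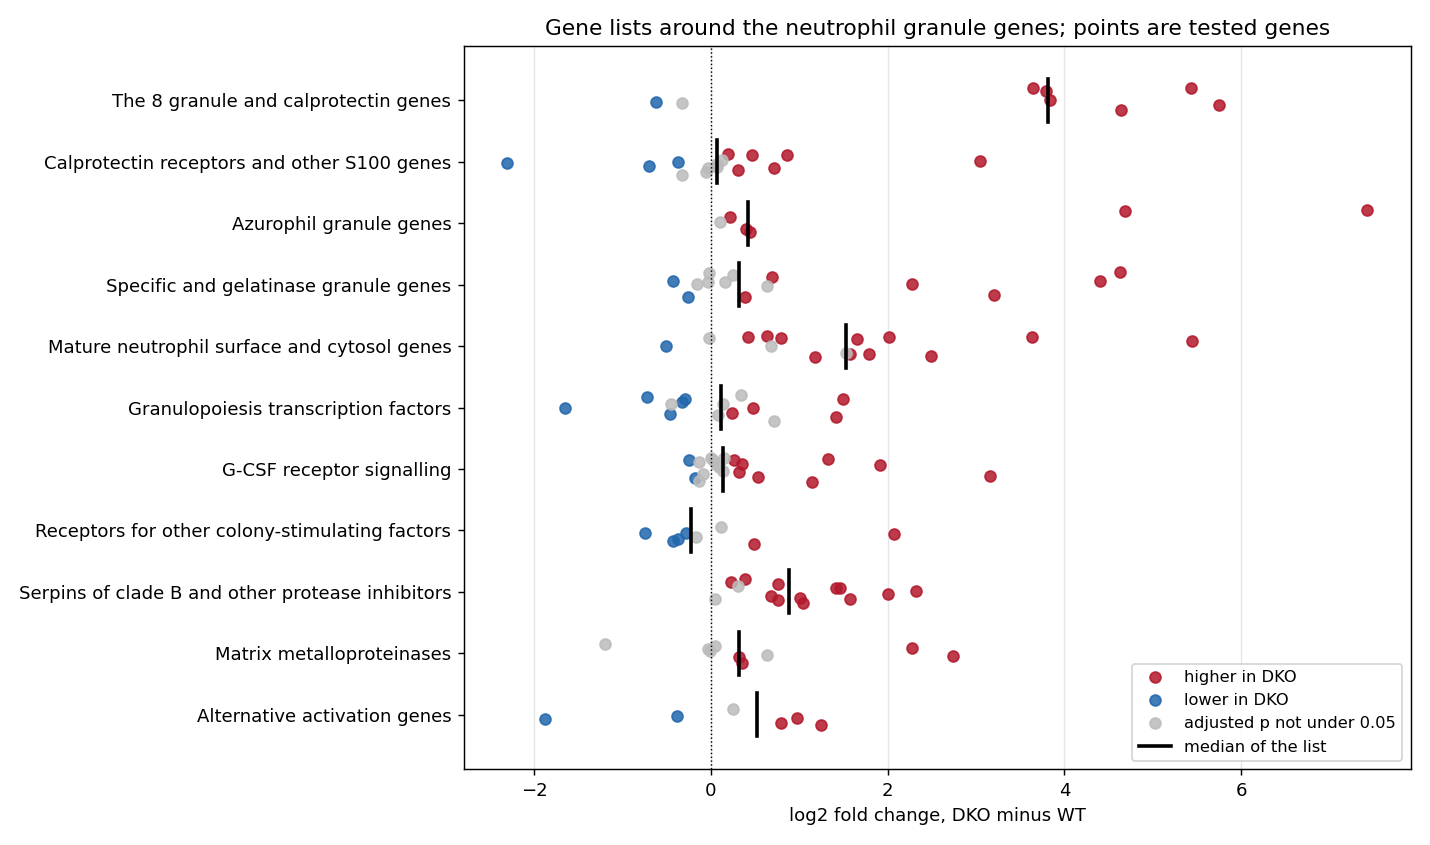
Log2 fold change in the libraries labelled DKO against WT of every tested gene in each list, 1 point per gene, red where it was higher and blue where it was lower at an adjusted p under 0.05, grey otherwise, with a black bar at the median of the list. The 8 granule and calprotectin genes have a median of 3.82, the mature neutrophil list 1.53 and the protease inhibitors 0.88, and the other lists lie between -0.23 and 0.52.

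A list of neutrophil markers was read too. Each of its tested genes is already in a list above, so its counts add no further genes. Leaving out the 8 genes themselves, 18 neutrophil markers were listed, of which 9 had values and 7 were tested. Of these, 6 rose in the libraries labelled DKO, 0 fell and 1 did not pass. Without DKO 3, 6 were tested: 5 rose, 0 fell and 1 did not pass. For 4 of the 7, Prtn3, Ctsg, Cd177 and Stfa2l1, only a rise could be called, since they passed the filter on low counts only through those libraries. That leaves Lcn2 and Mmp9, which rose, and Cebpe, which did not pass. All 9 markers with values, those 4 among them, summed to 12.8 to 16.2 CPM in the libraries labelled DKO. Their sum was 1.32 to 1.57 CPM in Cbl-/-, 1.07 to 1.74 in the libraries labelled Cbl-b-/- and 1.33 to 1.54 in WT. The defining markers Ly6g, Mpo, Elane, Camp and Retnlg were not analysed here, since a gene had values only if WT 1 held at least 1 read of it. Cxcr2, the chemokine receptor of mature neutrophils, had 12, 6 and 12 reads in the libraries labelled DKO and 5, 3 and 3 in WT, too few to be tested.

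Of 9 monocyte markers tested 7 rose, 0 fell and 2 did not pass, with a summed level of 162 to 208 CPM in the libraries labelled DKO, 92.1 to 99.98 in Cbl-/-, 85.5 to 93.7 in those labelled Cbl-b-/- and 63.1 to 70.1 in WT. Of 7 myeloid progenitor markers 5 rose, 1 fell and 1 did not pass. The progenitor markers summed to 418 to 459 CPM in the libraries labelled DKO, 354 to 377 in Cbl-/-, 302 to 324 in those labelled Cbl-b-/- and 300 to 335 in WT. Most of that sum was Cdk6, with a mean of 331 CPM in the libraries labelled DKO and 200 in WT. Cd34, which fell, had 65.4 and 77.1 CPM. Kit, Myb, Prtn3 and Ctsg, which rose, had means of 1.72 to 3.20 CPM in the libraries labelled DKO. The progenitor list holds Prtn3 and Ctsg, which the neutrophil list holds too, and the monocyte list holds Hp. All 12 macrophage markers had values in every group. They summed to 17570 to 20770 CPM in the libraries labelled DKO, 18390 to 19330 in Cbl-/-, 21440 to 23760 in those labelled Cbl-b-/- and 21030 to 23190 in WT. Lyz2 made up most of that sum, with a mean of 14080 CPM in the libraries labelled DKO and 15670 in WT. Lyz2 and Itgam are in the specific and gelatinase granule list too. Against WT 2 of the 12 macrophage markers rose in the libraries labelled DKO, 7 fell and 3 did not pass (2, 8 and 2 without DKO 3). Csf1r was at -0.37, Adgre1 at -0.37 and Cd68 at -0.14 (adjusted p = 0.11). The median over the 12 was -0.37, and the values ran from -2.64 for the apolipoprotein gene Apoe to 0.82 for the Fc receptor gene Fcgr1, both chosen after their values were seen. Of the other marker lists, 2 of 2 eosinophil (1 without DKO 3), 1 of 1 mast cell and basophil, 3 of 4 dendritic cell, 1 of 2 B cell and 5 of 7 stromal and endothelial genes tested rose in the libraries labelled DKO, and 2 of 2 erythroid and megakaryocyte genes fell. Eosinophil markers summed to 3.88 to 5.70 CPM in the libraries labelled DKO and 1.26 to 1.55 in WT, and stromal and endothelial markers to 40.3 to 47.3 and 29.1 to 34.6. The part of neutrophils, monocytes or progenitors among the adherent cells in the rise of the 6 genes was not tested.

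The genes whose pattern over the 12 libraries was most like each of the 8 were sought among 10084 or 10085 genes, by the root mean square difference of log2 CPM centred on WT. Of the genes that rose, only S100a8, S100a9 and Serpinb1a averaged 1 log2 CPM or more and could be named as nearest. Serpinb1a was nearest to S100a8 (0.390), S100a8 to Ltf and to Serpinb1a, S100a9 to Ngp (0.504) and to Chil3 (1.18). Outside the 8, Ccl7, a monocyte-attracting chemokine gene, was nearest to S100a9 (0.885) and among the nearest 3 of S100a8, Ngp and Serpinb1a, and Cyp2s1 was among the nearest 3 of S100a8, Ltf and Serpinb1a. Mmp8 was nearest to Palld (0.227), Zmynd15 (0.234) and Mlf1 (0.237), and Csf3r to Them6, Arhgap24 and Tmem205 (0.153). The distances of Chil3 to its nearest genes were the largest, and its values outside the libraries labelled DKO rest on few reads.

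Within 1 Mb of S100a8 and S100a9, where further S100 genes lie, 5 of 28 tested genes rose in the libraries labelled DKO against WT and 4 fell, shares near the 19.1% and 16.3% of all genes. The counts were 3 higher and 8 lower of 23 near Ngp, 3 and 6 of 20 near Ltf, 4 and 1 of 17 near Chil3, and 3 and 5 of 26 near Csf3r. Near Mmp8, 4 of 9 rose and 0 fell, and near Serpinb1a, where other clade B serpins lie, 4 of 7 rose and 0 fell. No other annotated gene overlaps any of the 8.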

How the data were processed

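The authors deposited 1 table of raw read counts per gene, whole numbers without normalization. Every gene in it had at least 1 read in WT 1. The build was GRCm38.p5 per the submitters' processing notes; stranded mRNA libraries were made with a TruSeq kit, and RNA was pooled at equal concentration, per the labels' protocols, which do not say what was pooled. Not given in the sources used here are the aligner, the counter and its strand setting.

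All 12 libraries were fitted together in edgeR 4.0.16 (R 4.3.3) with filterByExpr, TMM scaling and 1 mean per genotype. Every adjusted p comes from its robust quasi-likelihood test, adjusted by Benjamini-Hochberg across 12671 genes, at a threshold of 0.05. SE is the absolute log2 fold change divided by the square root of F. CPM was computed with the TMM factors, and RPKM from the exon length in GENCODE M21, which also gave positions. Near-identical copies were sought as shared stretches of 50 bases between annotated transcripts.

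The genes, lists and tests were chosen with earlier results of these data known. All 8 genes are given in every comparison. From each list up to 4 genes past the threshold with the smallest adjusted p in the libraries labelled DKO against WT are named, and the neutrophil and macrophage markers given. For likeness, the nearest 3 genes are named among those whose log2 CPM averages 1 or more. Cebpe, Cd177, Stfa2l1, Cdk6, Cd34, Kit, Myb and Lyz2 were chosen after their values were seen. Results for some genes of the lists are not reported here. The fit was tested on simulated data. Chi-square statistics of counts per degree of freedom were 3.93 to 55.3 over 12 replicate pairs, so none was counted as the same library.

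Alternatives changed the scaling (DESeq2 size factors, total counts), the filter (none, or 5 CPM in 3 libraries), the test (DESeq2 1.42.0, voom of limma 3.58.1) and the model (a block on replicate number, only the compared genotypes in the fit), and left out every library once.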

Additional observations from a re-analysis of the deposited data

Results flagged for a closer look

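In 7 of the 8 genes the change in the libraries labelled DKO differed from the sum of the changes in Cbl-/- and in the libraries labelled Cbl-b-/-, by edgeR's interaction contrast on the log2 scale. The departure was 3.42 for S100a8 (adjusted p = 1.2e-05), 4.21 for S100a9 (adjusted p = 1.3e-06) and 3.01 for Ngp (adjusted p = 2.4e-05). It was 3.68 for Ltf (adjusted p = 9.8e-06), 6.30 for Chil3 (adjusted p = 1.5e-05) and 3.10 for Serpinb1a (adjusted p = 1e-06). Mmp8, which encodes neutrophil collagenase, had -1.59 (adjusted p = 3.4e-06).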

How the results depend on the processing

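The rise of S100a8, S100a9, Ngp, Ltf, Chil3 and Serpinb1a and the fall of Mmp8 in the libraries labelled DKO against WT kept their direction and passed in all 14 alternatives each. At 5 CPM in 3 libraries the genes that rose passed the filter only through the libraries labelled DKO. A fall of them could not have been called there. The number of the 8 genes past the threshold for Cbl-/- against WT was 4 and ranged from 2 to 3 when 1 library was left out. For the Cbl-b-/- label against WT it was 0, and 1 with total counts for scaling or with DESeq2. For Cbl-/- against the Cbl-b-/- label it was 2, and 0 to 3 when 1 library was left out. Directions that turned did so only when 1 library was left out, in genes that did not pass: Ltf in Cbl-/- against WT (-0.11 to 0.52), S100a8 (-0.15 to 0.12), Ltf (-0.40 to 0.20), Chil3 (-0.27 to 0.73) and Serpinb1a (-0.27 to 0.18) with the Cbl-b-/- label against WT, Csf3r with the DKO label against Cbl-/- (-0.022 to 0.23), Mmp8 in Cbl-/- against the Cbl-b-/- label (-0.061 to 0.12), and the Csf3r departure (-0.20 to 0.087). The causes were not tested.

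Replicate numbers did not pair the libraries: deviations of same-numbered libraries correlated by -0.054 to 0.052 over 18 pairs. With the replicate number as a block, 3 of the 8 genes passed for Cbl-/- against WT, since S100a9 was lost (0.91, adjusted p = 0.056). Over all genes, the number called for Cbl-/- against WT was 1251, 2753 with those genotypes alone and down to 733 when 1 library was left out, and for the Cbl-b-/- label against WT 62, 145 with DESeq2 and down to 35. For Cbl-/- against the Cbl-b-/- label it was 934, 1712 with those genotypes alone and down to 533, and for the DKO label against the Cbl-b-/- label 4211, and 2760 with those genotypes alone. Scaling to total counts gave 1362 higher and 2747 lower for the DKO label against Cbl-/-, 1543 and 3207 against the Cbl-b-/- label, and 711 and 1719 for the departure. Depth limits Chil3 outside the libraries labelled DKO most.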
